A study of Mus musculus with 16 samples.

Results

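A set of 8 genes of scavenger receptors and related macrophage proteins was followed in mouse muscle: *Marco*, *Msr1*, *Stab1*, *Olr1*, *Scarb1*, *Colec12*, *Cd68* and *Cd5l*. These 8 were taken by gene symbol from the 26382 genes of the normalized counts table. They were chosen by earlier results of the same data, in which *Marco* was among the largest rises with HRS, so the *Marco* values in HRS and HRS-MBP against PBS are a description and carry no test. No value is given as a reason for listing the other 7. Earlier results of these data were known when they were listed, so their tests are not fully independent of that choice. All 8 were found, and 7 passed the filter on low values (a mean of at least 0.5 normalized counts over the 16 libraries), with *Olr1* under it.

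The libraries were poly(A)-selected RNA from the hamstring muscle of female C57BL/6 mice aged 8 to 10 weeks, collected 14 days after intramuscular injection. No group carried a transgene or deletion. HRS is histidyl-tRNA synthetase, the autoantigen known as Jo-1, given at 3 to 5 mg/mL, and PBS is the buffer used for control injections. Mice m862 to m866 gave both the 5 HRS legs (left) and the 5 contralateral PBS legs (right). The 4 PBS-only legs came from 2 mice, m867 and m868, which received buffer alone, so that these 4 libraries are not 4 animals. The 2 HRS-MBP libraries came from mice m860 and m861, whose titles name a maltose-binding protein fusion at 2 to 3 mg/mL while the treatment label gives HRS at 3 to 5 mg/mL. The leg is not stated for HRS-MBP. The protocol describes injection into both hamstrings, whereas the titles give HRS to 1 leg and PBS to the other. Grouping here rests on the titles, which alone tell the legs apart.

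Scavenger receptors are surface or endosomal proteins that bind modified lipoproteins, microbial surfaces and cell debris and carry them into the cell. Macrophages are the cells best known for them, but endothelial cells, fibroblasts, adipocytes and hepatocytes carry some members too. *Marco* and *Msr1* encode trimeric class A receptors with a collagen-like stalk, and *Colec12* a related collectin best known from endothelium and stroma. *Stab1* encodes stabilin-1 of alternatively activated macrophages and sinusoidal or lymphatic endothelium, *Scarb1* the receptor for high-density lipoprotein, *Olr1* the lectin-like receptor for oxidized low-density lipoprotein, *Cd68* a heavily glycosylated endosomal protein used as a macrophage marker, and *Cd5l* a soluble cysteine-rich protein secreted by macrophages. In bulk RNA, more cells of a type and more RNA per cell cannot be told apart.

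RefSeq promoter sequences (GRCm38.p6) were matched for 5 of the 8 genes, *Marco*, *Cd5l*, *Olr1*, *Cd68* and *Stab1*. The 250 bases upstream of the start site are shown, 5′ to 3′ on the strand of the gene, for the members with the highest HRS to PBS ratios, *Marco* and *Cd5l*, and for *Cd68*, the macrophage marker of the set. Capitals mark a match to any of 4 searched motifs on either strand, namely GAGGAAGT (PU.1), TGANTCA (AP-1), TTCNNNGAA (GAS, the element of STAT proteins) and TTGCNNAA (C/EBP). The windows are chr1:120505025-120505274 (minus strand) for *Marco*, chr3:87357631-87357880 (plus strand) for *Cd5l* and chr11:69666171-69666420 (minus strand) for *Cd68*.
Marco: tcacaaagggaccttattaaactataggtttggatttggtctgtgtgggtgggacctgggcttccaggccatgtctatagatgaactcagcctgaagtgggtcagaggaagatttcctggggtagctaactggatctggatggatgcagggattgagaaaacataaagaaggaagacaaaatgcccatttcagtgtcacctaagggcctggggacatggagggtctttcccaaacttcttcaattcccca
Cd5l: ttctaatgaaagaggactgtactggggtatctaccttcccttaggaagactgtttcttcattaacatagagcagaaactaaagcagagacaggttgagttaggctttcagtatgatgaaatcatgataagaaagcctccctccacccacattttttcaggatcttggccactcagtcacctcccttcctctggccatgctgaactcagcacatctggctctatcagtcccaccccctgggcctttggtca
Cd68: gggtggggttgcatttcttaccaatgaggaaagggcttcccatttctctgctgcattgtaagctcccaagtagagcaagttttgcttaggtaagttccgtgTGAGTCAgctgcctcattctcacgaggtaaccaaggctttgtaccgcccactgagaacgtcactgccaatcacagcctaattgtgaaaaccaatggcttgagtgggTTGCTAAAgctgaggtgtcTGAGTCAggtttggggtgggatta

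The *Cd68* window held TGAGTCA at 2 places, starting 149 and 24 bases before the start site, and TTGCTAAA 43 bases before it. The windows of *Marco*, *Cd5l* and *Stab1* held none of the 4 letter strings, and that of *Olr1* held TGAGTCA once, 60 bases before the start site. Among 27025 upstream windows of the same length, TGANTCA was present in 6.87%, TTGCNNAA in 9.55%, TTCNNNGAA in 7.18% and GAGGAAGT in 2.44%. A match says that these letters are there, and no binding was measured.

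Sequencing depth, read from the step between low values, was 8600000 to 73900000 reads per library, shallowest in the legs of m868, and the normalized counts summed to between 726797 and 1252358 per library. The sequencing was done on 3 Illumina platforms that the labels do not assign to libraries, so platform and treatment cannot be told apart. The HRS leg of m866 stood apart from the other 4. Mitochondrial genes made up 11.14% of its counts, against 3.41% to 6.29% in the other HRS legs and 9.69% to 13.05% in the 9 PBS legs. Its 16 macrophage marker genes summed to 1530, against 3650 to 8110 in the other HRS legs, 164 to 448 in the PBS legs and 7060 to 7130 in HRS-MBP. None of these markers was at 0 in every library of a group. The 10 muscle fibre markers were abundant throughout, at 42800 to 208000 in sum, and lowest in the HRS leg of m864. Marker lists of several cell types differed with treatment and are given beside the results, and their part in the results was not tested.

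Comparison of HRS legs with the contralateral PBS legs asks what changes locally at day 14. By limma with Benjamini-Hochberg adjustment over all 16414 tested genes, a gene was called at an adjusted p under 0.05 and an absolute log2 fold change above 1. Of the 6 members with a test, 5 were called higher and none lower (*Msr1*, *Stab1*, *Colec12*, *Cd68*, *Cd5l*), and *Scarb1* was not called. This fit did not use the leg pairs. With mouse as a fixed block the limma adjusted p was higher, at 0.00122 for *Msr1*, 0.0107 for *Stab1* and 0.0507 for *Colec12*. It was 0.00389 for *Cd68* and 0.00144 for *Cd5l*. For background, 16.9% of all tested genes were called higher and 6.27% lower, and the median log2 fold change over all of them was 0.08. Against the PBS-only legs the same 5 of 6 were called higher, with a background of 18.9%, and in HRS-MBP against PBS-only 4 of 6 (*Msr1*, *Stab1*, *Cd68*, *Cd5l*), with a background of 20.7%. Those calls share their PBS-only libraries and are given side by side. Of all called genes 73% were higher in the first comparison, 76.3% in the second and 67% in the third. The same shares were 56.2%, 54.5% and 47.3% after quantile normalization and 94.5%, 94.3% and 91.1% with limma-voom, which rescales to library totals, and the 7 members above the filter kept a higher value in these 3 comparisons under both scalings. *Olr1* was not fitted under them.

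**Figure D1:**
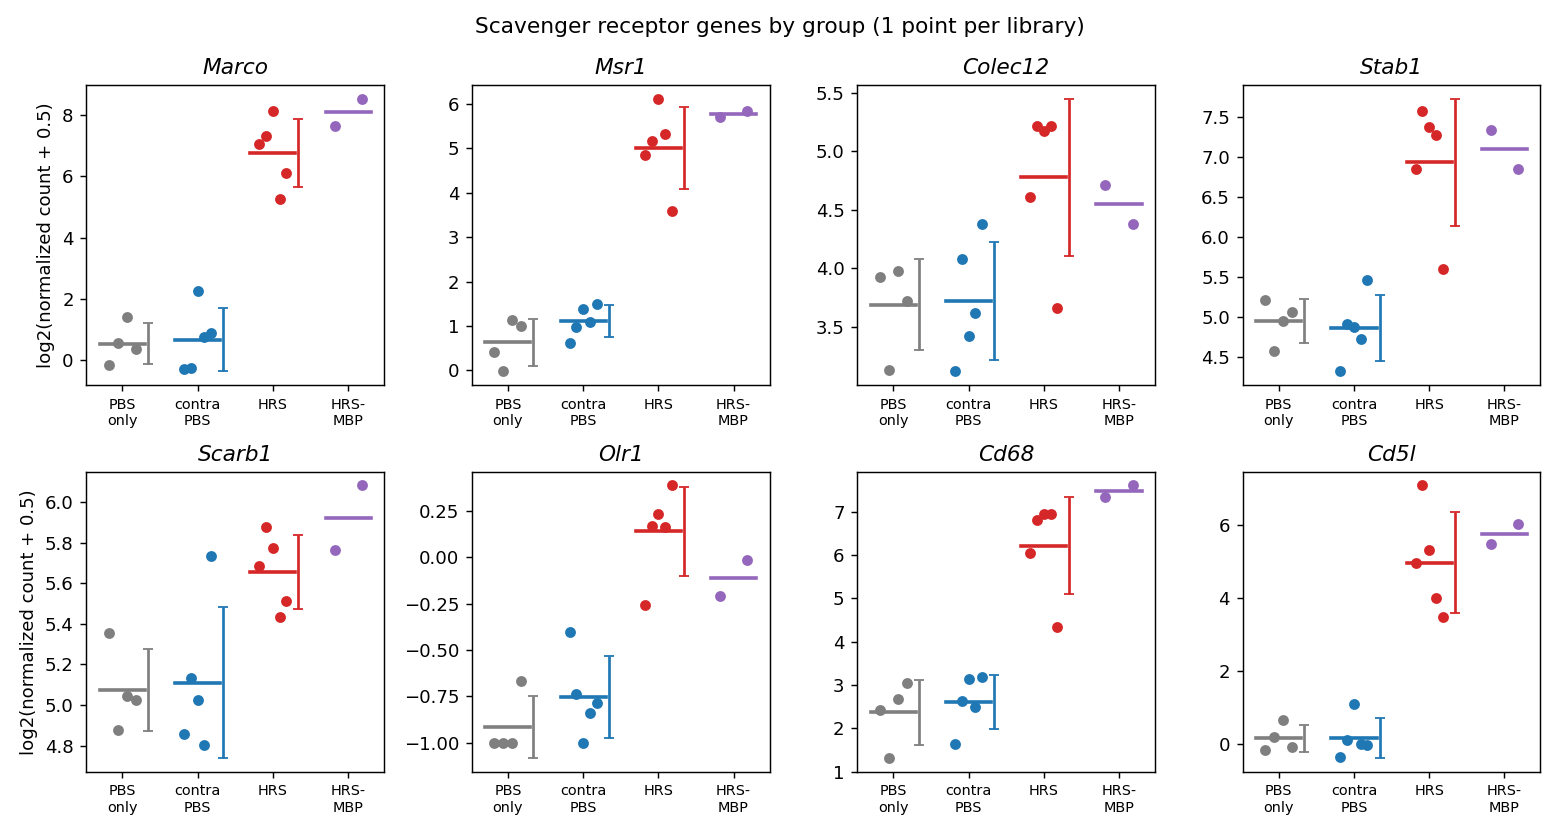
Levels of the 8 genes as log2(normalized count + 0.5) in every library (points), with the group mean (line) and SD over libraries (error bar, not drawn for the 2 HRS-MBP libraries). The y axes differ between genes. All members but *Colec12* and *Scarb1* lay higher in all 7 HRS and HRS-MBP libraries than in all 9 PBS legs.

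*Marco* (GRCm38 chromosome 1, 120474538 to 120505024, minus strand) measured 131, 158, 280, 37.9 and 68.7 normalized counts in the HRS legs of m862 to m866. The PBS leg of each of these mice measured 0.32, 0.346, 4.25, 1.21 and 1.35. The HRS leg with the least *Marco*, that of m865, was still above every PBS leg. PBS-only legs lay between 0.398 and 2.18, with a mean of 1.08, or 0.717 without the right leg of m868, and HRS-MBP libraries at 199 and 369. The mean was 135 ± 94.0 (SD, n = 5) in HRS legs and 1.49 ± 1.61 (SD, n = 5) contralaterally, a ratio of 90.4. That ratio was 168 without the contralateral leg of m864, with a contralateral mean of 0.805 (library left out after the values were seen). On the log2 scale the difference was 6.10 (SE 0.54), rank 2 from the top of all tested genes, and 6.22 (SE 0.57) against PBS-only legs, rank 1. HRS-MBP exceeded PBS-only legs by 7.54 (SE 0.73) on the log2 scale, rank 5. These are the values by which the gene was selected, so no test is attached. Within single mice the HRS leg held between 31.5 and 456 times the *Marco* level of the PBS leg.

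*Msr1* (chromosome 8, 39581685 to 39642673, minus strand), the classic macrophage receptor for acetylated low-density lipoprotein, measured 28.2, 35.3, 69.2, 39.3 and 11.6 in the HRS legs of m862 to m866. The contralateral legs of these mice measured 1.03, 1.47, 2.12, 1.62 and 2.34. There was no overlap, and m866 had the lowest HRS value and the highest contralateral one. PBS-only legs measured 0.485 to 1.70 and HRS-MBP libraries 52.0 and 56.6. The log2 fold change was 3.89 (SE 0.36, limma adjusted p = 2.1e-06) against contralateral legs, and 4.38 (SE 0.38, adjusted p = 1.68e-06) against PBS-only legs. Separation of HRS from contralateral legs, every HRS value above every PBS value, was found for 18.3% of all tested genes, and against PBS-only legs for 26.6%. Among the 6 members with a test, *Msr1*, *Stab1*, *Cd68* and *Cd5l* were separated from the contralateral legs, and these and *Scarb1* from the PBS-only legs.

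*Colec12* (chromosome 18, 9707595 to 9882644, plus strand) changed far less. Its HRS legs measured 23.9, 36.7, 35.6, 36.7 and 12.2 in m862 to m866, and the contralateral legs 8.20, 16.4, 10.3, 11.8 and 20.2. In m866 the order was turned, with the PBS leg above the HRS leg. The log2 fold change of 1.05 (SE 0.30, limma adjusted p = 0.00739) only just passed the threshold of 1. With mouse as a fixed block it was still 1.05 but the adjusted p was 0.0507, so the call was lost. Leaving out the HRS leg of m863, m864 or m865, or the contralateral leg of m862 or m864, took the fold change to 0.94, 0.95, 0.94, 0.90 and 0.98, under that threshold, and leaving out the HRS leg of m866 took it to 1.33 (adjusted p = 0.000153). PBS-only legs measured 8.29 to 15.3, and the log2 fold change against them was 1.08 (SE 0.32, limma adjusted p = 0.0089). It fell under the threshold, to between 0.90 and 0.99, without the HRS leg of m863, m864 or m865 or the left leg of m867. HRS-MBP libraries, at 25.7 and 20.3, were both above every PBS-only leg, with a difference of 0.86 on the log2 scale (limma adjusted p = 0.0862). Of the 10 fibroblast markers, 6 were called higher (16.9% of all genes) and none lower in HRS against contralateral legs, and their sum was 14800 to 25500 in HRS legs except for 2770 in m866. Of the 10 endothelial markers none was called.

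*Stab1* (chromosome 14, 31139013 to 31168641, minus strand) measured 115, 189, 165, 154 and 47.8 in the HRS legs of m862 to m866. The contralateral legs measured 19.5, 29.7, 28.8, 26.1 and 43.4. In 4 mice there was thus 5.73 to 6.36 times as much *Stab1* in the HRS leg, whereas in m866 the ratio was 1.10. Still, no HRS leg overlapped a contralateral leg. The log2 fold change was 2.07 (SE 0.31, limma adjusted p = 8.84e-05), and 2.40 without the HRS leg of m866. Against PBS-only legs, at 23.3 to 36.5, it was 1.98 (SE 0.33, limma adjusted p = 0.000193). HRS-MBP libraries measured 161 and 115, a difference from PBS-only legs of 2.14 (SE 0.42, limma adjusted p = 0.000771). Its sister gene *Stab2*, a clearance receptor of sinusoidal endothelium, was called in the opposite direction. *Stab2* averaged 1.29 in HRS legs and 4.39 contralaterally, a log2 fold change of -1.46 (SE 0.22, limma adjusted p = 8.16e-05). Among the 7 lymphatic and sinusoidal endothelial markers, 3 were called higher (16.9% of all genes) and 1, *Stab2* itself, lower (6.27% of all genes).

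*Scarb1* (chromosome 5, 125277087 to 125341094, minus strand) measured 50.9, 58.2, 54.3, 42.7 and 45.1 in HRS legs and 28.5, 34.5, 32.01, 27.4 and 52.7 contralaterally, in m862 to m866. The contralateral leg of m866 lay inside the HRS range. The log2 difference was 0.55 (95% interval 0.21 to 0.89, limma adjusted p = 0.00878), short of the fold threshold, and 0.70 without that contralateral leg. PBS-only legs measured 28.8 to 40.4, below all HRS legs, with a difference of 0.58 (95% interval 0.22 to 0.94, limma adjusted p = 0.00876). HRS-MBP libraries measured 53.8 and 67.3, a difference of 0.85 from PBS-only legs (95% interval 0.38 to 1.32, limma adjusted p = 0.00481). With limma-voom that difference was 1.32, and so called. Without the HRS-MBP library of m860 it was 1.01, but that leaves 1 HRS-MBP library, so no call is given. The contralateral leg of m866, where *Scarb1* was highest among PBS legs, also had the highest adipocyte marker sum of all 16 libraries, 4100 against 482 to 847 in the other contralateral legs. In HRS against contralateral legs 7 of 8 adipocyte markers were called lower, beside 6.27% of all genes, but against PBS-only legs 1 of 8, beside 5.87%.

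*Olr1* (chromosome 6, 129485244 to 129507165, minus strand) was scarce everywhere. HRS legs measured 0.338, 0.626, 0.679, 0.623 and 0.81 in m862 to m866, worth 180 reads in all. Contralateral legs measured 0.256, 0.0989, 0, 0.0588 and 0.0808, worth 19 reads in all. The 2 groups did not overlap, and an exact permutation test of the libraries gave the smallest two-sided p that 5 against 5 allow (p = 0.00794). That test ignores that the legs are pairs, and the exact sign-flip test over the 5 mice gave p = 0.063, the smallest it allows. The ratio of the means was 6.22, and 10.3 without the contralateral leg of m862. PBS-only legs were at 0 in 3 libraries and at 0.13 (2 reads) in the left leg of m868, below the 3-read limit of that library (0.196). HRS-MBP libraries measured 0.367 and 0.489. When all genes were fitted without the filter, the log2 difference between HRS and contralateral legs was 0.90 (SE 0.13, limma adjusted p = 0.000128), a value held down by the added 0.5.

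*Cd68* (chromosome 11, 69664213 to 69666153, minus strand) measured 65.3, 112, 123, 123 and 19.8 in the HRS legs of m862 to m866. The contralateral legs measured 2.63, 5.73, 8.27, 5.09 and 8.62. The 2.30-fold difference in m866 compares with 14.9-fold to 24.9-fold in the other 4 mice. The log2 fold change was 3.60 (SE 0.47, limma adjusted p = 2.8e-05), and 4.07 without the HRS leg of m866. PBS-only legs measured 1.98 to 7.76, and HRS legs exceeded them by 3.85 (SE 0.49, limma adjusted p = 2.45e-05) on the log2 scale. HRS-MBP libraries measured 162 and 194.97, above every HRS leg, and exceeded PBS-only legs by 5.11 (SE 0.64, limma adjusted p = 1.71e-05).

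*Cd5l* (chromosome 3, 87357881 to 87371073, plus strand), whose protein sustains macrophage survival and circulates bound to IgM, measured 30.9, 136, 39.5, 15.5 and 10.8 in the HRS legs of m862 to m866. Contralaterally it measured 0.288, 0.593, 1.66, 0.5 and 0.485. Thus the highest PBS leg stayed well under the lowest HRS leg, and m863 stood far above the other HRS legs. The log2 fold change was 4.80 (SE 0.50, limma adjusted p = 4.83e-06), rank 17 from the top of all tested genes. PBS-only legs measured 0.398 to 1.09 and HRS-MBP libraries 44.5 and 64.5. HRS legs exceeded PBS-only legs by 4.82 (SE 0.53, limma adjusted p = 7.05e-06) and HRS-MBP exceeded them by 5.60 (SE 0.69, limma adjusted p = 1.53e-05). With the added constant at 2 instead of 0.5, the HRS against contralateral value was 3.65 for *Cd5l*, 3.20 for *Msr1* and 5.09 for *Marco*, since their PBS levels are near that constant.

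The leg pairs gave the same picture mouse by mouse. *Marco*, *Msr1*, *Stab1*, *Olr1*, *Cd68* and *Cd5l* had the higher value on the HRS side in 5 of 5 mice, and *Scarb1* and *Colec12* in 4 of 5, with m866 the exception for both. Exact two-sided sign-flip tests over the 5 mice reached the smallest p that 5 mice allow (p = 0.063) for *Msr1*, *Stab1*, *Olr1*, *Cd68* and *Cd5l*, and gave p = 0.13 for *Scarb1* and *Colec12*, so that no member can pass 0.05 by this test. Mouse m866 had the smallest difference for 6 members, and for *Msr1*, *Colec12*, *Stab1*, *Scarb1* and *Cd68* the other mice lay close together. For *Marco* the smallest difference was in m865 and for *Olr1* in m862.

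**Figure D2:**
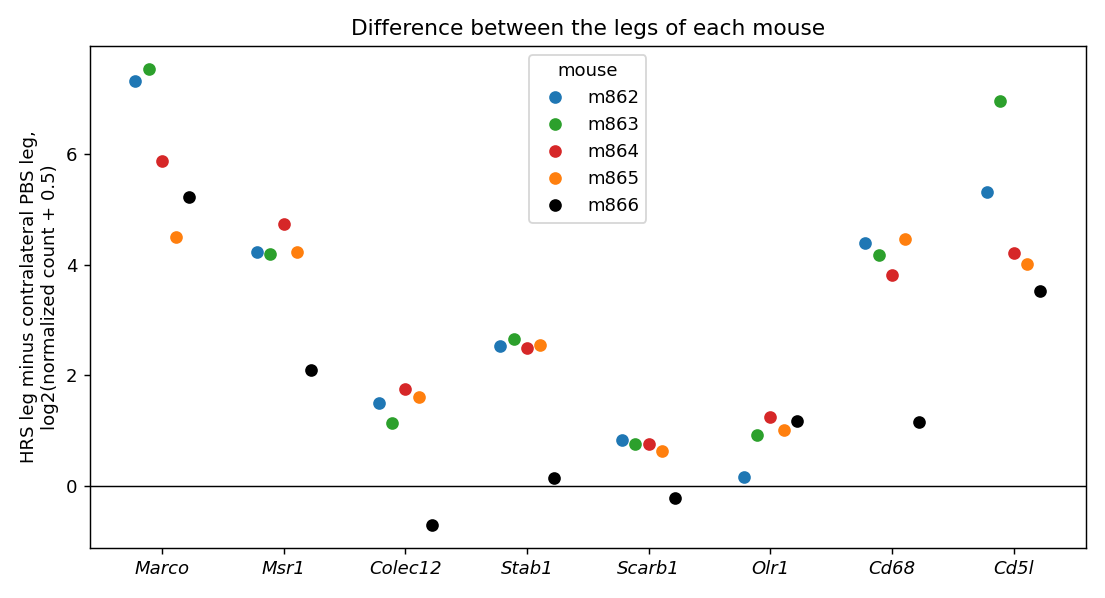
Difference between the HRS leg and the contralateral PBS leg of each of the 5 mice, in log2(normalized count + 0.5), with 1 colour per mouse. The other 4 mice lie close together for *Stab1* (2.50 to 2.65) and m866 near 0 (0.14), whereas *Marco* (4.49 to 7.55) and *Cd5l* (3.52 to 6.96) spread over all mice.

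The spread among HRS legs differed between members. The highest HRS leg exceeded the lowest 12.6-fold for *Cd5l*, 7.38-fold for *Marco*, 6.23-fold for *Cd68* and 5.97-fold for *Msr1*. It did so 3.96-fold for *Stab1*, 3.01-fold for *Colec12*, 2.40-fold for *Olr1* and 1.36-fold for *Scarb1*. The order of the mice also differed. *Marco* and *Msr1* were highest in m864 and *Cd5l* and *Stab1* in m863, while *Cd68* was nearly equal in m864 and m865. In m865 *Cd68* was high (123) but *Marco* low (37.9), a *Marco* to *Cd68* ratio of 0.308. In m866 both were low, *Cd68* (19.8) more so than *Marco* (68.7), with a ratio of 3.47.

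**Figure D3:**
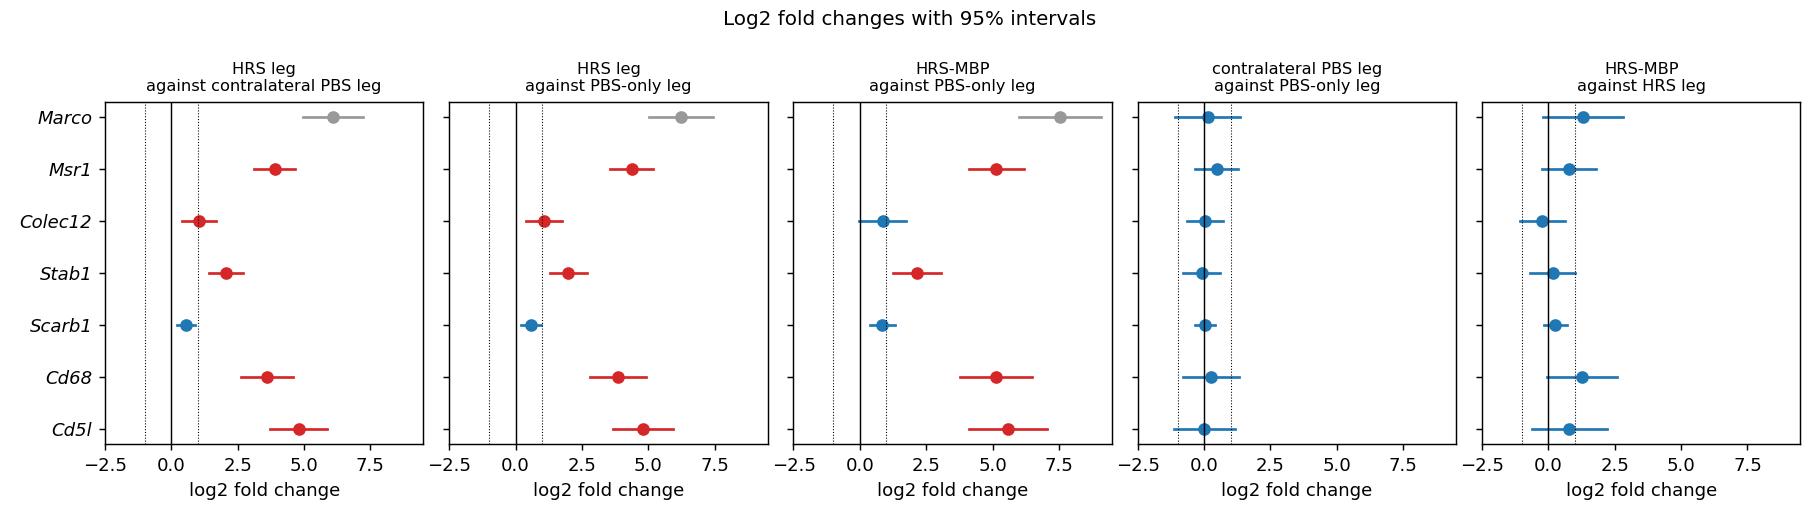
Log2 fold changes (points) and 95% intervals (lines) of the 7 members above the filter in 5 comparisons. Red marks called genes, blue genes tested and not called, and grey *Marco* in comparisons where it has no test. Dotted lines mark a log2 fold change of 1 in either direction. In the 2 comparisons on the right every interval includes 0.

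Contralateral PBS legs were compared with PBS-only legs to see whether the PBS leg of a mouse given HRS differed from legs of mice given buffer alone. By limma, 0 of 7 members, here with *Marco*, were called, 0 had an unadjusted p under 0.05, and 0 were called by limma-voom. Over all genes 0.00609% (1 of 16414) were called in either direction. The largest difference was that of *Msr1*, 0.48 on the log2 scale (95% interval -0.33 to 1.29, limma adjusted p = 0.993). *Marco* differed by 0.13 (95% interval -1.08 to 1.34, limma adjusted p = 1.0), so a difference of about 2-fold in either direction lies within its interval. *Scarb1* had the narrowest interval, -0.33 to 0.40. With 2 PBS-only mice behind 4 legs, these intervals may be too narrow.

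HRS-MBP libraries were compared with HRS legs to set the fusion protein beside HRS, although the mice differ, the leg of the HRS-MBP libraries is not stated and their labels disagree on the dose. Again 0 of 7 members were called by limma, 0 had an unadjusted p under 0.05, and 0 were called by limma-voom, while 0.463% of all tested genes (76) were called in either direction. That number depends on single libraries and on the fit, with 578 genes called when the m864 HRS leg was left out and 8 with only these 2 groups in the fit. *Marco* was higher by 1.31 on the log2 scale (95% interval -0.19 to 2.82, limma adjusted p = 0.403) and *Cd68* by 1.26 (95% interval -0.05 to 2.57, limma adjusted p = 0.364). *Colec12* was the one member with a lower fitted value, -0.23 (95% interval -1.07 to 0.61, limma adjusted p = 0.816), among the 7 tested, and that of *Stab1*, 0.16, was -0.17 without the HRS leg of m866. *Olr1* averaged 0.428 against 0.615. With 2 HRS-MBP libraries, exact permutation of libraries cannot go below p = 0.0952 here or below p = 0.133 against PBS-only legs.

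Across the 4 groups, *Marco*, *Msr1*, *Scarb1* and *Cd68* had their highest mean in HRS-MBP, followed by HRS legs, whereas *Colec12* and *Olr1* were highest in HRS legs. For *Stab1* (137.8 in HRS-MBP and 134.3 in HRS legs) and *Cd5l* (54.5 and 46.6) the order depended on single libraries. Without the HRS leg of m866 the HRS means were 155.9 and 55.5, above those of HRS-MBP. *Stab1* also turned without the HRS leg of m862 or the HRS-MBP library of m860, and *Cd5l* without that of m861. HRS-MBP and HRS legs, as neighbours in that order, did not pass the test for any of the 7 tested members, although *Cd68* was higher in both HRS-MBP libraries than in every HRS leg. The 2 PBS groups did not pass it either. Per kb of exon, the order of the genes changed with HRS. In contralateral legs *Cd68* led with 4.83 normalized counts per kb, then *Scarb1* with 4.12, *Stab1* with 2.87, *Colec12* with 1.53, *Marco* with 0.776, *Cd5l* with 0.347, *Msr1* with 0.27 and *Olr1* with 0.0277. Without the contralateral leg of m864 *Marco* stood at 0.418, *Msr1* at 0.254 and *Cd5l* at 0.229, and without that of m862 *Olr1* stood at 0.0167. In HRS legs *Cd68* (70.6) and *Marco* (70.2) were level at the top, followed by *Cd5l* (22.9), *Stab1* (13.1), *Scarb1* (5.91), *Msr1* (5.79), *Colec12* (3.33) and *Olr1* (0.172). The lead of *Cd5l* over *Stab1* rested on m863, without which *Cd5l* stood at 11.9 and *Stab1* at 11.7. In HRS-MBP *Marco* stood at 147.5 and *Cd68* at 142.2 normalized counts per kb, and without the library of m861 at 103.4 and 129.2. In HRS legs *Marco* and *Cd68* stood at 51.3 and 63.7 without m864. There *Scarb1* and *Msr1* stood at 6.06 and 6.78 without m866.

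The members were also set against a list of macrophage marker genes, a comparison added after the values were seen and given without a test. The list does not measure the number of macrophages, so a rise against it is not a rise per macrophage. For each library the log2 level of the gene was taken minus the mean log2 level of 16 macrophage genes. The 16 include no member (*Adgre1*, *Csf1r*, *C1qa* and others). All 16 were called higher in HRS against contralateral legs, beside 16.9% of all genes. Their median log2 fold change was 3.43, beside 0.08 over all genes. *Marco* stood higher against that list in HRS legs, moving from -2.89 ± 0.83 (SD, n = 5) in contralateral legs to -0.16 ± 0.92 (SD, n = 5) in HRS legs. The values overlapped only through m865, whose HRS leg at -1.79 lay just under the contralateral leg of m864 at -1.68. *Msr1* went from -2.45 ± 0.20 (SD, n = 5) to -1.92 ± 0.16 (SD, n = 5), without overlap. *Cd68* kept close to the list, at -0.95 ± 0.18 (SD, n = 5) and -0.71 ± 0.48 (SD, n = 5). *Cd5l* moved from -3.39 ± 0.43 (SD, n = 5) to -1.95 ± 1.12 (SD, n = 5) and overlapped through m865. *Stab1*, *Colec12* and *Scarb1* lost ground to the list, from 1.29 to 0.01, from 0.15 to -2.15 and from 1.54 to -1.27. *Olr1* went from -4.32 to -6.78, but its PBS values lie under the added 0.5, which holds down its rise. No loss against the list can be read from that value. For *Marco*, *Cd5l*, *Msr1* and *Olr1* the added 0.5 raises the low PBS values.

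**Figure D4:**
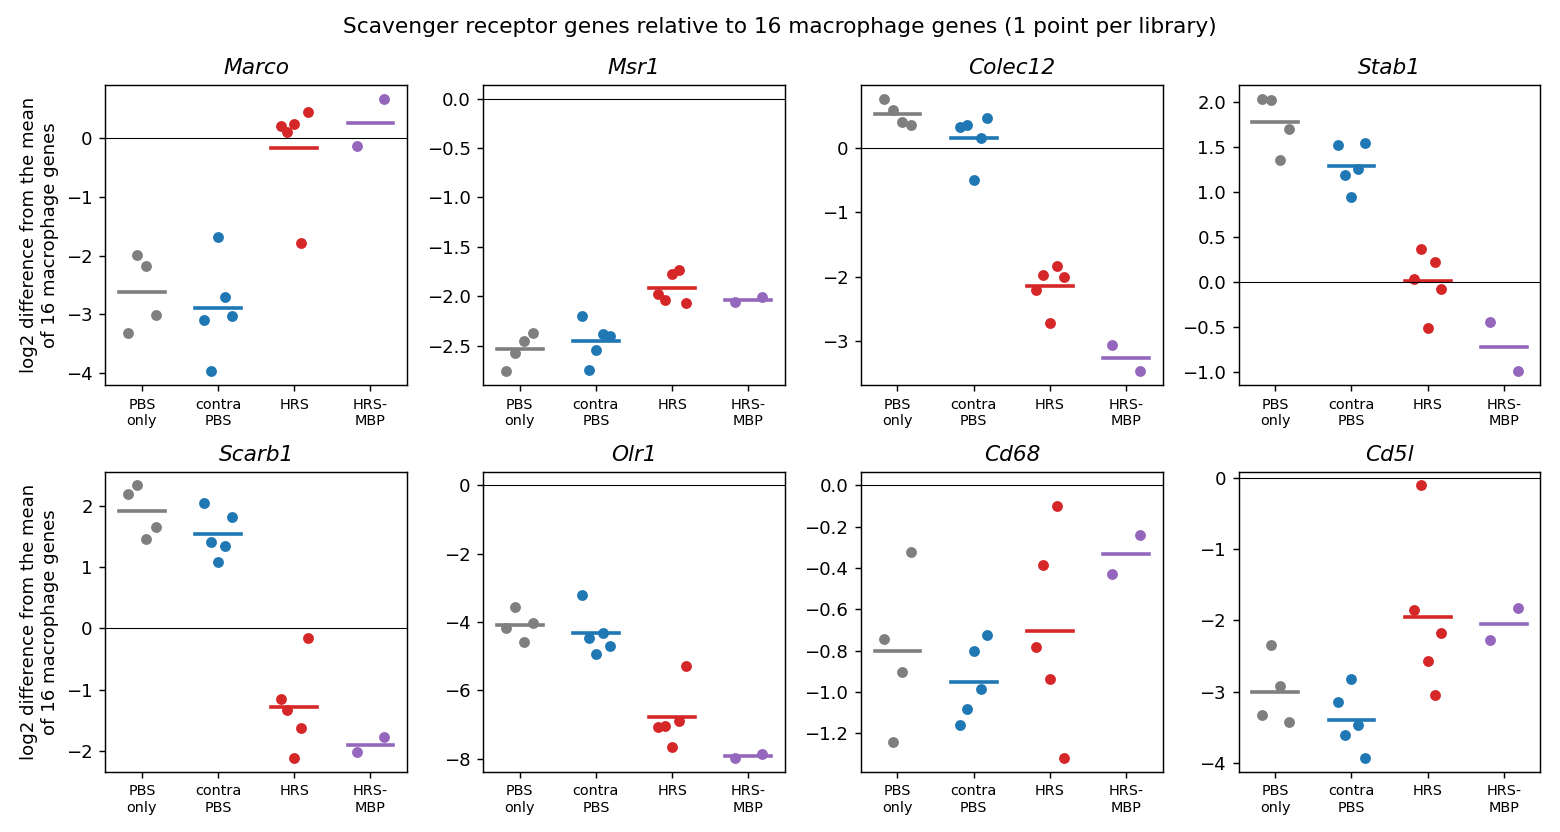
Log2 level of each gene minus the mean log2 level of 16 macrophage genes, in every library (points) with the group mean (line). The y axes differ between genes. *Msr1*, and *Marco* in all mice but m865, lie higher relative to the list in HRS legs than in every contralateral leg, *Cd68* is nearly level, and *Stab1*, *Colec12* and *Scarb1* lie lower.

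Other marker lists moved as well. The 8 monocyte markers summed to 260 to 1750 in HRS legs and 74.2 to 213 in contralateral legs. The 11 neutrophil markers summed to 31.6 to 208 in HRS legs and 3.65 to 16 in contralateral legs, with *Ly6g* at 0 in every contralateral leg. Counts of calls are not given for these lists, nor for T cells or B and plasma cells, since 2, 8, 4 and 5 of their markers passed the filter with both PBS means under 0.5, so that only the HRS groups carried them over it. Of 8 tested resident macrophage markers 2 were called higher and 2 lower, beside 16.9% and 6.27% of all genes. Muscle fibre markers were called lower for 6 of 10, beside 6.27% of all tested genes, but against PBS-only legs for 3 of 10, beside 5.87%. T cell markers summed to 20.2 to 125 in HRS legs and 4.11 to 5.3 in contralateral legs, and B and plasma cell markers to 20.3 to 53.1 and 1.82 to 6.42.

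Of 24 other genes with scavenger receptor function, 22 were tested in HRS against contralateral legs, where 13 were called higher, 2 lower and 7 not called. Of all genes, 16.9% were called higher and 6.27% lower. The median log2 fold change of the 22 was 1.28, beside 0.08 over all genes. Among the 13, *Ager*, passed the filter on low values only through its HRS levels. The 4 largest rises were in *Cxcl16*, a membrane-bound chemokine that also takes up oxidized lipoprotein (3.57, SE 0.36), *Clec7a*, the beta-glucan receptor dectin-1 (3.52, SE 0.46), *Mertk*, a kinase receptor for apoptotic cells (2.24, SE 0.36), and *Ssc5d*, a soluble cysteine-rich protein (1.94, SE 0.40). Their adjusted p by limma lay between 3.98e-06 and 0.00121. Both falls were in receptors, *Cd163*, the haemoglobin scavenger of resident macrophages (-1.57, SE 0.26, limma adjusted p = 0.000228), and *Stab2*, described with *Stab1*. *Cd163* averaged 6.08 in HRS legs and 19.97 contralaterally, and *Mrc1*, another receptor of resident macrophages, 90.1 and 30.3 (log2 fold change 1.53, limma adjusted p = 0.000801). *Cd36*, the fatty acid and oxidized lipoprotein receptor that muscle and fat also express, measured 212 and 306 on average and was not called (-0.48, limma adjusted p = 0.0768). Against PBS-only legs 13 were called higher (18.9% of all genes) and 2 lower (5.87% of all genes), and in HRS-MBP against PBS-only 13 (20.7%) and 1 (10.2%). *Ager* is among the higher calls of both.

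Genes that process the lipid cargo of phagocytes were followed as a second list. All 22 were tested, and in HRS against contralateral legs 12 were called higher, 1 lower and 9 not called. Of all genes, 16.9% were called higher and 6.27% lower. The median log2 fold change of the 22 was 1.47, beside 0.08 over all genes. The 12 include *Apoc2* and *Ch25h*, which passed the filter only through their HRS levels. The largest rises were in *Trem2*, a lipid-sensing receptor (3.90, SE 0.70), *Gpnmb*, a glycoprotein of lipid-laden macrophages (3.85, SE 0.70), *Abcg1*, a cholesterol exporter (2.85, SE 0.35), and *Soat1*, which esterifies cholesterol (2.73, SE 0.36). By limma their adjusted p lay between 1.95e-05 and 0.000452. *Vldlr*, a lipoprotein receptor abundant in muscle and fat, was called lower (-1.27, SE 0.29, limma adjusted p = 0.00187). The counts were 13 higher and 1 lower against PBS-only legs and 14 higher and 1 lower in HRS-MBP against PBS-only, beside 18.9% and 20.7% of all genes called higher and 5.87% and 10.2% lower. *Apoc2* and *Ch25h* are among the higher calls of both.

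The genes whose profile over the 16 libraries was nearest to each member were found by the root mean square difference of centred log2 levels, as a description over libraries that share groups. Nearest to *Marco* were *Acod1* (0.40), *Saa3* (0.44) and *Clec4e* (0.65). *Acod1*, which makes itaconate in activated macrophages, averaged 71.9 in HRS legs, 0.662 contralaterally and 157.7 in HRS-MBP, and *Saa3*, an acute phase protein, 442.6, 4.76 and 767.6. Without mouse m864 the contralateral mean was 0.354 for *Acod1* and 2.39 for *Saa3*, and the HRS mean of *Saa3* was 247.6. *Msr1* was nearest to *Myo1f* (0.17), *Ms4a6d* (0.24) and *Ms4a6c* (0.25), and *Cd68* to *Laptm5* (0.30), *C3ar1* (0.31) and *Tlr13* (0.32), genes known from myeloid cells or leukocytes in general. *Cd5l* was nearest to *Clec4d* (0.51), *Ly9* (0.56) and *Fpr1* (0.63), all less alike than the nearest genes of *Msr1* or *Cd68*. *Stab1* was nearest to *Sh3pxd2b* (0.17), *Efemp2* (0.17) and *Ttyh3* (0.18), and *Colec12* to *Dpt* (0.16), *Clmp* (0.17) and *Fam149a* (0.18). *Dpt* encodes the matrix protein dermatopontin and is one of the 10 fibroblast markers. *Scarb1* was nearest to *Dennd6a* (0.14), *Dtx2* (0.15) and *Rtn3* (0.15), and *Olr1* to *Utp18* (0.20), *Arl13b* (0.23) and *Helb* (0.23). For *Olr1* the added 0.5 narrows the range, so its nearest genes say little. Among the members themselves *Msr1* and *Cd68* were close, at 0.369, while *Marco* and *Cd5l* differed by 0.993. The value for *Olr1* and *Scarb1*, 0.373, is not comparable, since the added 0.5 flattens the profile of *Olr1*.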

How the data were processed

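The authors deposited normalized counts, a linear signal with 0 as its lowest value. Per the labels, their processing notes list STAR 2.7.8a, limma, mm39 and GRCm39, with the scaling not given in the sources used here. Gene positions nevertheless match GENCODE M21 (GRCm38) for 99.0% of 25652 matched genes, so GRCm38 is used. Between 75.1% and 77.5% of low values were whole multiples of a step within 0.02 of it, too few to recover reads, and count models were not used. The step gives depth and a 3-read limit, for counting error only. No column was left unused. Strand use in counting is not given in the sources used here.

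One limma 3.58.1 fit (R 4.3.3, mean trend) of 4 groups used log2(normalized count + 0.5). Members, lists and tests were chosen with earlier results of these data known. Named list genes were at most 4 largest rises and falls among called genes, and *Cd36*, *Mrc1*, *Ager*, *Apoc2*, *Ch25h* and the marker genes were named after their values were seen. Exact tests used scipy 1.17.1. The 4 PBS-only legs come from 2 mice, so their p-values partly measure spread within animals.

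Same mouse numbers mean the same animal, from the labels. Deviations of its 2 legs correlated across genes at 0.119, 0.163, 0.0972, -0.0256 and -0.366 in m862 to m866. Simulated data gave every gene the same log2 spread, drawn independently for each library, and changed 200 genes by a fixed amount. They held no leg pairs and no outlying library. Of the 200, 194 were recovered for HRS against contralateral legs, 190 for HRS against PBS-only legs and 193 for contralateral against PBS-only legs. Each had 0 false calls. For HRS-MBP against PBS-only legs 183 were recovered with 2 false calls, and for HRS-MBP against HRS legs 188 with 5. These counts check the fit and do not measure recovery in the real data, where spread differs between genes. Alternatives covered constant, filter, scaling, variance model, block, and libraries left out, and group means without single libraries were added after the values were seen.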

Additional observations from a re-analysis of the deposited data

Results flagged for a closer look

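Of 24 sets of values (8 genes in 3 groups of 4 or 5 libraries), 5 had a library that lay apart from the rest by Dixon's criterion. Chance alone meets it in about 1 of 20 where values are normally distributed. The counts were not put on a log scale and each of the 5 was a highest value, so no excess over chance is read from this. *Marco* was 4.249 in the contralateral PBS leg of m864, against 1.35 in the next highest. In the same leg *Cd5l* was 1.663, against 0.593 in the next. *Cd5l* was 136.1 in the HRS leg of m863, against 39.5 in the next. *Scarb1* was 52.67 in the contralateral leg of m866, against 34.5 in the next. *Olr1* was 0.1304 in the left leg of PBS-only mouse m868, against 0 in the other 3 legs, a value worth 2 reads. With 3 legs at 0, any value above 0 in the remaining leg meets the criterion.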

How the results depend on the processing

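In HRS against contralateral legs, *Msr1*, *Stab1*, *Cd68* and *Cd5l* stayed called in all 21 alternatives each, and *Colec12* in 13, the exceptions being a constant of 2 (0.98), quantile normalization (0.86), the paired fit with mouse as a fixed block (1.05) and 5 left-out libraries. Mouse as a block, fixed or random, changed no other call, but the adjusted p of the tested members was higher. Quantile normalization also took *Colec12* against PBS-only legs to 0.82. A constant of 2 gave *Marco* 5.09, 5.20 and 6.50 in the 3 HRS or HRS-MBP comparisons. Limma-voom moved the median of all genes in HRS against contralateral legs from 0.08 to 0.48, and quantile normalization to -0.16.

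Genes called between contralateral and PBS-only legs numbered 1, or 0 with a smaller constant, without a filter, with limma-voom, with PBS-only legs averaged per mouse or with 2 groups alone in the fit, and 2 after quantile normalization. Leaving out single libraries gave 0 to 2. Genes called between HRS-MBP and HRS legs numbered 76, or 35 with a mean of at least 2, 49 with PBS-only legs averaged and 8 with the 2 groups alone. Leaving out single libraries gave 11 (HRS-MBP m861) to 578 (HRS leg m864), with 49 without the HRS leg of m863, 179 without that of m866 and 134 without HRS-MBP m860. The cause was not tested. Depth limits *Olr1* most, with 19 and 2 reads in all in the 2 PBS groups.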
